A study of Mus musculus with 8 samples.

Results

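Ribosome footprints of mouse liver were examined for 7 guanylate-binding protein genes, Gbp1, Gbp2, Gbp5, Gbp6, Gbp7, Gbp8 and Gbp10. The members were chosen by gene symbol, and all 7 had a row among the 7500 genes of the table. Guanylate-binding proteins are large GTPases that interferon-gamma induces strongly in many cell types. They gather on the vacuoles of intracellular bacteria and parasites and on bacterial surfaces, where they help to break the membrane open and to start inflammasome signalling. In the mouse their genes lie in a cluster on chromosome 3 and another on chromosome 5.

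The libraries came from livers of male FVB/N mice. From weaning, the mice ate a selenium-deficient diet for 6 weeks, either with no selenium added (0 Se, 2 mice, 4 libraries) or with 0.1 ppm selenium as sodium selenite (0.1 Se, 2 mice, 4 libraries). All mice were wild type. Each of the 4 mice gave 2 libraries of the pieces of mRNA, about 30 bases long, that ribosomes protect from RNase, so the values describe ribosomes on coding sequences and not mRNA alone.

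CPM is read counts scaled to the size of a library. The value used for each gene was the authors' log2 CPM. It was taken to be their average over all libraries of both diets, which its label does not state. It has no SD and no n, and the depth of the single libraries is unknown, so no difference between members was tested and neighbours in an order of levels could not be set against a spread. The diets were not compared here, because the sources used hold the contrast only as the authors' own fold changes and p-values. Levels of genes were set side by side as CPM per kb of deposited coding length unless another divisor is named.

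On the scale of coding length, the members were read in liver at moderate levels, between the quartiles of all genes. The levels of Gbp6, Gbp8 and Gbp10 depended on the divisor, as described further on. Per kb of coding length, Gbp1 had the highest footprint level, with a mean log2 CPM of 5.64, which is 49.9 CPM over a coding length of 1710 bases, or 29.2 CPM per kb. Gbp7 followed with 30.2 CPM and 16.2 CPM per kb, and Gbp10 with 24.1 CPM and 13.6 CPM per kb. This order held for coding length only: per kb of the stretches that no other gene holds exactly, described further on, Gbp10 exceeded Gbp1 1.92-fold. Gbp1 and Gbp7, along with Gbp6 and Gbp10, are known from mouse macrophages as factors that limit the growth of mycobacteria.

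Gbp2, which is known for coating the vacuole of Toxoplasma, had 17.3 CPM and 10.1 CPM per kb. Gbp8 had 13.3 CPM and 8.73 CPM per kb. Gbp5, which promotes assembly of the NLRP3 inflammasome, had 8.46 CPM and 4.94 CPM per kb. Gbp6 was the lowest member on this scale, with 7.43 CPM and 4.18 CPM per kb. From the highest to the lowest member the level per kb of coding length differed 6.98-fold. Per kb of stretches without an exact copy, Gbp6 was the third of the 7 and Gbp1 exceeded it 1.24-fold.

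Between neighbours in the order Gbp1, Gbp7, Gbp10, Gbp2, Gbp8, Gbp5 and Gbp6 the ratio of levels per kb was 1.80 from Gbp1 to Gbp7 and 1.77 from Gbp8 to Gbp5. The other neighbours lay closer, at ratios of 1.16 to 1.34. Each value pools both diets, and the order within a diet was not examined. The members together took 151 CPM, of which 33.1% came from Gbp1 and 69.2% from Gbp1, Gbp7 and Gbp10. The 4 genes on chromosome 3 held 70.2% of that sum. Only reads that aligned to 1 place entered it. As described further on, other genes hold exact copies of 46.0% to 83.5% of the 30-base stretches of the chromosome 5 members. For the chromosome 3 members the range was 0.178% to 11.6%. The percentages of the sum are therefore uncertain as shares of all Gbp footprints.

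Against all genes of the table, 3 members lay above the median level of 11.3 CPM per kb and 4 below it. Gbp1 exceeded 70.9% of the genes, Gbp7 58.6%, Gbp10 54.7%, Gbp2 47.2%, Gbp8 44.1%, Gbp5 30.3% and Gbp6 26.9%. All 7 fell between the lower quartile of 3.80 and the upper quartile of 37.5 CPM per kb of coding length. Ranked per kb of stretches without an exact copy, Gbp10 exceeded 80.6% of the genes and Gbp6 67.2%. Genes without a row were not analysed here, so these ranks refer to the rows of the table and not to every gene read in liver.

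**Figure D1:**
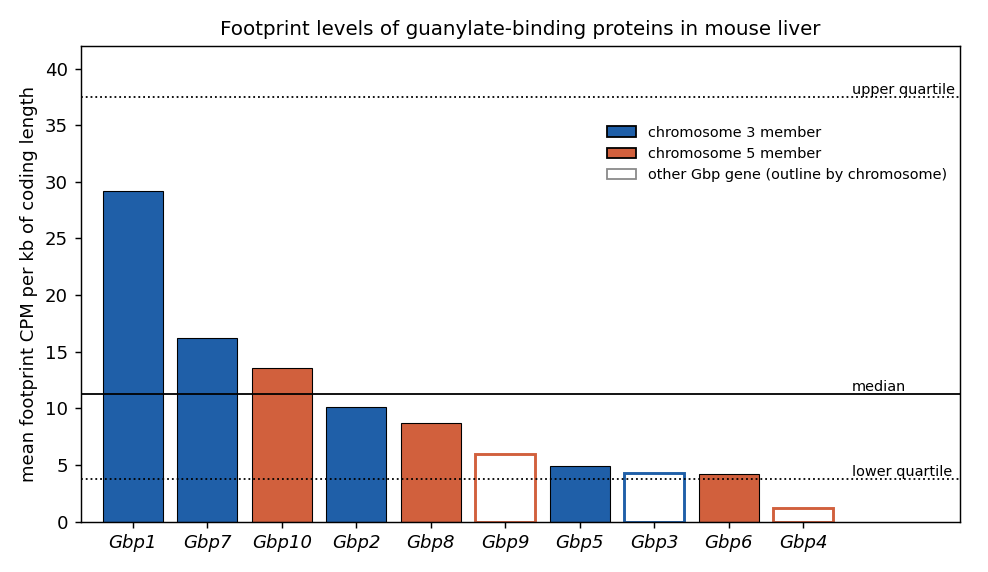
Mean footprint CPM per kb of coding length for the 7 members (filled bars) and the 3 other Gbp genes with a row (open bars), coloured by chromosome; horizontal lines mark the quartiles and median over 7500 genes, and the values are the authors' means without error. Gbp1 stands highest at 29.2 CPM per kb and Gbp6 is the lowest member at 4.18.

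Of the other Gbp genes, Gbp9 had 6.01 CPM per kb, Gbp3 had 4.33 and Gbp4 had 1.22. The level of Gbp11 was not analysed here, and its coding sequence entered only the search for shared stretches described further on. All 3 were under the median gene. Gbp9 lay between Gbp8 and Gbp5, and Gbp3 between Gbp5 and Gbp6, whereas Gbp4 was below every member.

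The immunity-related GTPases are the other large family of interferon-induced GTPases, and 7 of the 10 listed had a row. Their median was 36.5 CPM per kb of coding length, against 10.1 for the Gbp members on that scale. Per kb of stretches without an exact copy, Gbp10 had 61.1 CPM, Gbp6 25.7 and Gbp8 16.4. Gbp1, Gbp2, Gbp5 and Gbp7 stayed within 1.5 times their level per kb of coding length. Levels of the immunity-related GTPases per kb of such stretches are not given here. Iigp1, which acts on the vacuole of Toxoplasma, was the highest at 215 CPM per kb and Gm12250 the lowest at 10.4. Igtp had 59.2 CPM per kb. Per kb of coding length, every immunity-related GTPase with a row was above Gbp2, and 4 of the 7 were above Gbp1.

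The listed genes of interferon signalling, not all of which lead to Gbp transcription, had rows for 11 of 15, with a median of 16.9 CPM per kb. Tyk2, a Janus kinase that acts at interferon receptors, was the lowest at 3.21 CPM per kb. Irf1, a transcription factor that interferon-gamma induces and that in turn drives Gbp genes, had 46.4 CPM per kb of coding length, above each Gbp member on that scale but below the 61.1 CPM that Gbp10 had per kb of stretches without an exact copy.

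Partners of Gbp defence, which are inflammasome, oxidase and autophagy genes, had rows for 13 of 19 and ran from Pycard, the inflammasome adaptor, at 3.54 CPM per kb to Gabarapl1, an autophagy protein, at 582. Their median was 45.9 CPM per kb. The listed prenylation enzymes attach the lipid that anchors some Gbp proteins to membranes or act on the protein after that step. Of 6 listed only Fnta, a subunit that farnesyl and geranylgeranyl transferases share, had a row, at 31.2 CPM per kb. Other large GTPases, which shape membranes, had rows for 6 of 12, from Atl1 at 1.18 to Atl3 at 121 CPM per kb.

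The liver label was checked against markers of its cells. Hepatocyte markers had rows for 5 of 6, from Serpina1c at 86.6 to Alb (albumin) at 51734 CPM per kb, with a median of 25548. Markers of Kupffer cells and macrophages had rows for 10 of 12, from Marco at 4.92 to Clec4f at 171 CPM per kb, and markers of sinusoidal endothelium for 8 of 8, from Lyve1 at 4.84 to Clec4g at 135. Stellate cell markers had rows for 6 of 6, from Des at 2.54 to Dcn at 208 CPM per kb. T and NK cell markers had rows for 2 of 8, Cd4 at 1.71 and Ptprc, a gene of leukocytes at large, at 3.09 CPM per kb. B cell markers had rows for 0 of 4. The hepatocyte marker Cps1 and the macrophage marker Cd68 had no row either, so in no list was a missing row read as absence from liver. Why a gene had no row was not tested. Per kb of coding length, all members but Gbp6 fell within the range of the macrophage list and of the endothelial list. All 7 fell within that of the stellate list. Per kb of stretches without an exact copy, Gbp6 had 25.7 CPM, which is within all 3 ranges. The ranges are wide, so lying within them does not point to a cell type. Which cells carried the Gbp footprints was not tested, and in whole liver fewer cells of a type cannot be told apart from less RNA per cell.

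**Figure D2:**
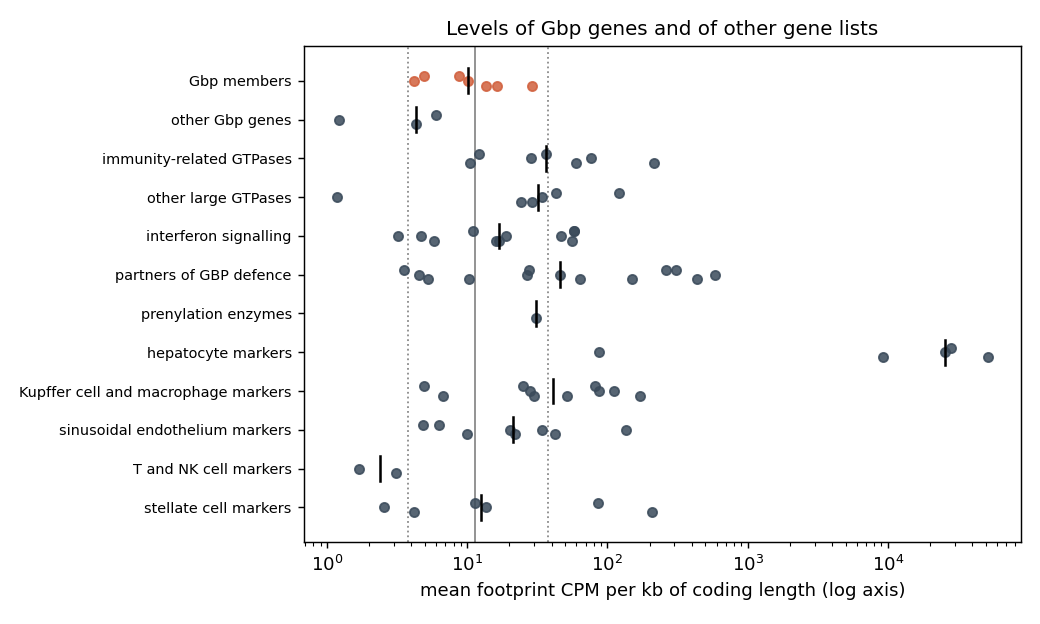
Mean footprint CPM per kb of coding length, on a log axis, of every gene with a row in each list; each point is a gene, the short bars are list medians and the vertical lines are the quartiles and median of all 7500 genes. The Gbp members spread from 4.18 to 29.2 around a median of 10.1, and the immunity-related GTPases from 10.4 to 215 around 36.5.

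The members' genes lie in the 2 clusters, given here in NCBIM37, the assembly also known as mm9. On chromosome 3, a stretch of 141.1 kb with 5 annotated Gbp genes held, on the plus strand, Gbp5 at chr3:142159864-142185308, Gbp7 at chr3:142193302-142213047, Gbp1 at chr3:142257811-142282143 and Gbp2 at chr3:142283566-142300972. On chromosome 5, a stretch of 329.8 kb with 6 annotated Gbp genes held, on the minus strand, Gbp8 at chr5:105443172-105482580, Gbp10 at chr5:105643926-105668552 and Gbp6 at chr5:105699723-105722718. Gbp8 had 10 exons and each of the others 11, and coding began in exon 2 in all 7.

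The translated proteins had 525 residues in Gbp8 and 589 to 638 in the others. The loop that binds GTP was found in all 7, and 3 of 7 (Gbp1, Gbp2 and Gbp5) ended in a CaaX box, judged by a cysteine in its first place, at which a prenyl lipid is attached. The coding bases of the loop are shown because they carry the function that names the family. Likeness in the loop did not follow likeness of the whole protein. Gbp6 and Gbp8 had the same loop bases, whereas over the whole protein Gbp6 was nearest to Gbp10. All lie in exon 2, at chr3:142261242-142261265 for Gbp1, chr3:142286790-142286813 for Gbp2, chr3:142163653-142163676 for Gbp5, chr3:142197619-142197642 for Gbp7, chr5:105719890-105719913 for Gbp6, chr5:105479917-105479940 for Gbp8 and chr5:105665004-105665027 for Gbp10. Capitals mark bases unlike Gbp2:
Gbp2: ggcctctaccgcacaggcaaatcc
Gbp1: ggcTtctaccAcacaggcaaatcc
Gbp5: ggTctTtaTcgcacaggcaaatcc
Gbp7: ggActAtaccgTacGggAaaatcc
Gbp6: ggATtGtaccgTacaggGaaGtcc
Gbp8: ggATtGtaccgTacaggGaaGtcc
Gbp10: ggATGGtCccgTacTggGaaGtcc
Of the 24 bases, 2 differed from Gbp2 in Gbp1, 3 in Gbp5, 5 in Gbp7, 6 in both Gbp6 and Gbp8, and 9 in Gbp10.

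Protein identity between members ran from 45.8% (Gbp5 and Gbp10) to 97.7% (Gbp6 and Gbp10). Within chromosome 5 the 3 pairs were 87.6% to 97.7% identical, and within chromosome 3 the 6 pairs were 47.0% to 76.2% identical, with Gbp1 and Gbp2 the closest. Across the chromosomes the 12 pairs ran from 45.8% to 69.6%, and Gbp7 was nearer to the members on chromosome 5 (66.6% to 69.6%) than to the other members on chromosome 3 (47.0% to 52.5%). Among all Gbp genes with a row it was nearest to Gbp3, its neighbour on chromosome 3 and no member, at 73.1%.

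**Figure D3:**
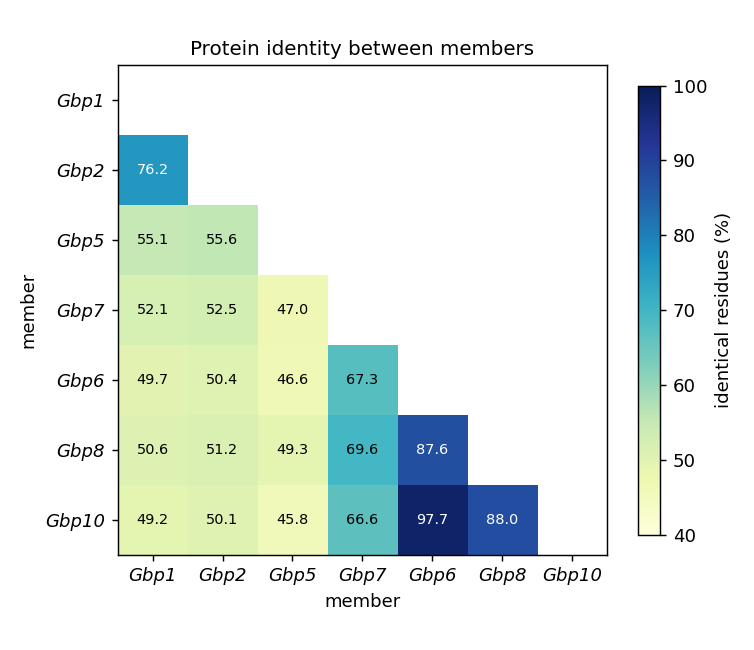
Identical residues, in percent of aligned positions without gaps, for the 21 pairs of members, with members of chromosome 3 first and those of chromosome 5 last. Gbp6 and Gbp10 form the closest pair at 97.7%, and Gbp1 and Gbp2 the closest pair on chromosome 3 at 76.2%.

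Identity matters for footprints because the authors counted reads that aligned to 1 place only, and a footprint from a stretch that paralogs share cannot be assigned to one of them. Each coding sequence was therefore cut into all its 30-base windows, and each window was looked for in the coding sequences of 22594 mouse genes. Of all 7260 genes of the table found in the annotation, 87.4% shared no window with another gene, and 2.42% shared most of theirs. These coding sequences came from GENCODE, whereas the authors aligned to RefSeq. Whether the shared portions differ between the 2 gene sets was not tested.

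The chromosome 3 members could mostly be told apart. Exact copies in another gene took 0.178% of the windows of Gbp5, 7.17% of Gbp1, 7.65% of Gbp2 and 11.6% of Gbp7. Gbp1 and Gbp2 shared 121 windows with each other, and 186 of those that Gbp7 shared were with Gbp3. With up to 2 mismatches the shares were 3.37%, 23.1%, 24.1% and 22.0%.

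Much less of the chromosome 5 members could be assigned. Exact copies took 83.5% of the windows of Gbp6, 77.5% of Gbp10 and 46.0% of Gbp8. With up to 2 mismatches this rose to 98.8%, 99.1% and 83.3%, which left 21 of 1753 windows for Gbp6, 15 of 1753 for Gbp10 and 249 of 1495 for Gbp8. Gbp6 exceeded 99.0% of the table's genes in its exactly shared portion, and Gbp10 exceeded 98.7%.

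The pair of Gbp6 and Gbp10 alone shared 1228 exact windows, 70.1% of the windows of each, since 30 of their 1836 coding bases differ. In both genes the last of 3 equal stretches of the coding sequence held most of the windows that could be assigned. In Gbp6 the last of 3 equal stretches held 195 of the 289 windows without an exact copy, and all 21 without a near copy lay from coding base 1616 to 1636. In Gbp10 the last stretch held 219 of 395 windows without an exact copy and 12 of 15 without a near copy. The first stretch of Gbp10 held 133 and 3 of these.

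The first pair of lines shows 30 bases in exon 2 in which Gbp6 (chr5:105719965-105719994) and Gbp10 (chr5:105665079-105665108) do not differ, a footprint that could belong to either. The second shows the 30 bases in exon 10 in which they differ most (Gbp6, chr5:105703246-105703275, and Gbp10, chr5:105647446-105647475), with capitals at the 6 bases that differ:
Gbp6, alike: aatgaacagctgtcagtgaaccaggaagcc
Gbp10, alike: aatgaacagctgtcagtgaaccaggaagcc
Gbp6, unlike: AagGaagctgGAgcaggagagagagcagGA
Gbp10, unlike: GagAaagctgATgcaggagagagagcagCT

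Gbp1 and Gbp2, in contrast, differ at 310 of 1770 coding bases. Their most different 30 bases lie in exon 11 near the stop codon (Gbp1, chr3:142281124-142281153, and Gbp2, chr3:142300412-142300441), with capitals at the 19 bases that differ:
Gbp1, unlike: GaAAAtCaagAaCaTGCCTCcACctCgATC
Gbp2, unlike: TaCCCtGaagCaAaACAAATcGTctGgGAA
In the last of 3 equal stretches of Gbp1 and Gbp2, each of 562 windows was free of an exact copy in another gene.

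**Figure D4:**
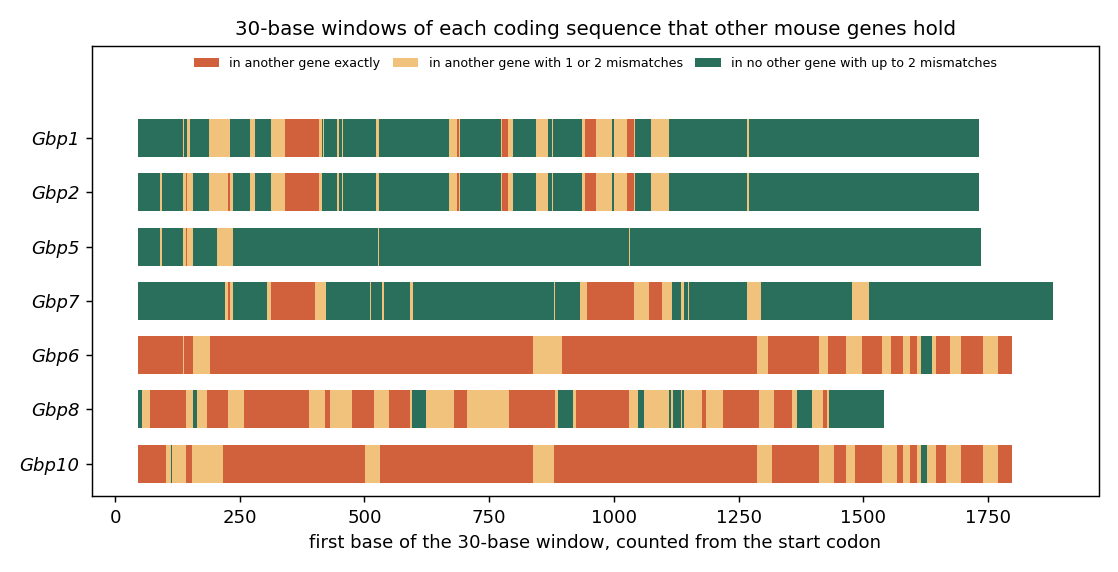
Each bar is the coding sequence of a member without its first 15 and last 3 codons, coloured at the first base of each 30-base window by whether another mouse gene holds that window exactly, with 1 or 2 mismatches, or not with up to 2; the x axis counts bases from the start codon. Bars of Gbp1, Gbp2, Gbp5 and Gbp7 are mostly free of copies, whereas 21 windows of Gbp6 and 15 of Gbp10 are free of near copies.

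The order of the members depended on this. Divided by the windows that no other gene holds exactly, the level was 31.9 CPM per kb for Gbp1, 18.6 for Gbp7, 11.1 for Gbp2 and 5.02 for Gbp5, each within 1.5 times the level per kb of coding length. Gbp10 had 61.1 CPM per kb of such windows, Gbp6 had 25.7 and Gbp8 had 16.4, so that Gbp10 stood above Gbp1, and Gbp6 moved from the last place to the third. On this scale 5 of the 7 members, and not 3, were above the median gene (11.8 CPM per kb over 7239 genes).

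Divided by the windows without a near copy of up to 2 mismatches, Gbp10 came to 1609 CPM per kb, Gbp6 to 354 and Gbp8 to 53.2, against 38.4 for Gbp1. Which divisor fits depends on how the aligner treated reads with a better and a worse match, a setting that no source used here states. The level of Gbp10 exceeded that of Gbp6 3.25-fold per kb of coding length and 2.38-fold per kb of windows without an exact copy. The windows were read from the mm9 genome and not from FVB/N, and whether the strains differ in these genes was not tested. The values of Gbp6, Gbp8 and Gbp10 are therefore uncertain as levels of single genes.

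**Figure D5:**
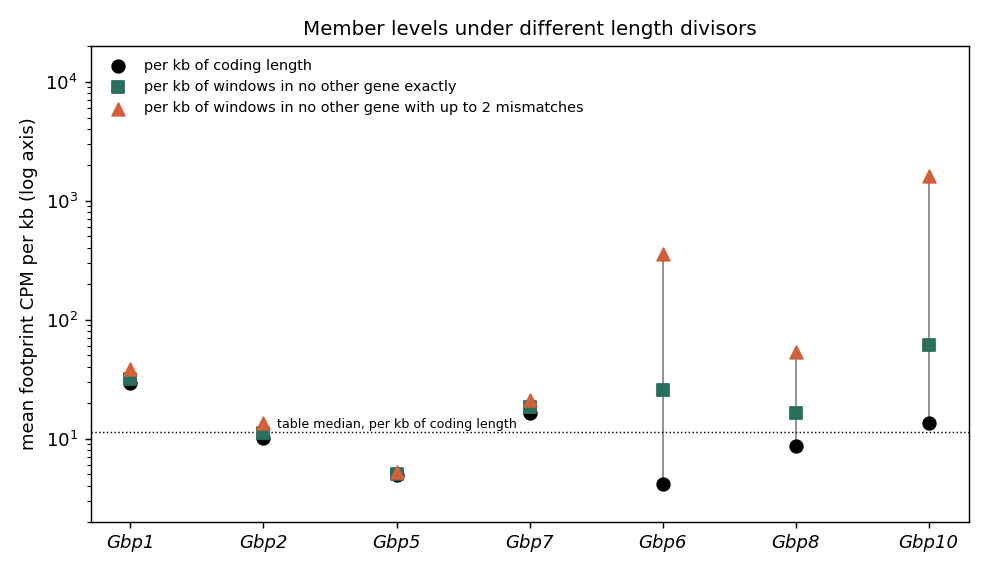
Mean footprint CPM per kb of each member, on a log axis, divided by coding length (circles), by windows in no other gene exactly (squares) and by windows in no other gene with up to 2 mismatches (triangles). The symbols of Gbp1, Gbp2, Gbp5 and Gbp7 lie within 1.5 times of each other for each gene, and those of Gbp10 run from 13.6 to 1609.

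RefSeq promoters of GRCm38.p6, from 250 bases before to 50 after the start of a gene, were at hand for 4 of the 7 members, Gbp1 (listed as Gbp2b), Gbp2, Gbp5 and Gbp7. They were searched on both strands for the core of the interferon-stimulated response element, GAAANNGAAA, which Irf factors bind, and for the gamma-activated site, TTCNNNGAA. The first stood in all 4, against 3.44% of all 32851 promoters. The second stood in 2 of 4 (Gbp5 and Gbp7), against 8.30% of all. Each response element read on the minus strand, so the lines, given on the plus strand, show it reversed, with its fixed bases in capitals:
Gbp1: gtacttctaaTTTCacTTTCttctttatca
Gbp2: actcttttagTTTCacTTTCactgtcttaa
Gbp5: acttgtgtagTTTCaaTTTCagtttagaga
Gbp7: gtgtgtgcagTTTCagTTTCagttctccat
These lie at chr3:142594700-142594729 for Gbp1, chr3:142620594-142620623 for Gbp2, chr3:142496759-142496788 for Gbp5 and chr3:142530273-142530302 for Gbp7 in GRCm38.p6. The element began 137 bases before the start in Gbp1, 59 in Gbp2, 165 in Gbp5 and 53 in Gbp7. A match describes letters of the promoter and not a bound site.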

How the data were processed

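Ribosome footprint libraries of mouse liver were grouped by diet from their titles (0 Se and 0.1 Se, 4 libraries each). According to the study's methods and the labels, the authors trimmed adapters, removed reads of ribosomal RNA, aligned the rest with Bowtie to RefSeq coding sequences of mm9 (longest isoform, without the first 15 and last 3 codons), kept reads with 1 place and up to 2 mismatches, and used edgeR after a filter on low abundance. The sources used here give no tool versions. The deposited log2 CPM is the authors' mean per gene over all libraries, to which edgeR adds a small prior count. The deposited coding length was 60 bases below an annotated coding sequence for 97.7% of 7260 genes found by symbol, and for all 7 members.

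The remaining 4 deposited columns hold the authors' own contrast of 0.1 Se with 0 Se (log2 fold change, fold change, p-value and adjusted p-value). They were not used. The values used here are a single value per gene, with none per library. The planned test of the diets was therefore not run, and no p-value, SD or interval is given. Depth per library is unknown.

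CPM was computed from the log2 value and divided by length in kb. Windows of 30 bases came from GENCODE M1 coding sequences on NCBIM37 and were compared on the coding strand with those of all genes. The window search was tested on simulated sequences. Proteins were translated from the same sequences and aligned globally with free end gaps. Promoters came from RefSeq. Python 3 with pandas, numpy, Biopython and matplotlib was used. The text names all members, the other Gbp genes, the highest and the lowest gene of each list, and Irf1 and Igtp, except for an item that is not reported here. Cps1 and Cd68 are also named, as markers without a row. Members and lists were chosen with earlier results of these data known. Alternatives were other lengths, window sizes, mismatches and gene sets, and a looser motif match.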

Additional observations from a re-analysis of the deposited data

How the results depend on the processing

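Values without replicates were counted as moved when they changed by over 1.5 times, and 50 of 65 alternative values stayed within that, among them all of Gbp1, Gbp2, Gbp5 and Gbp7. Per kb of windows in no other gene exactly, Gbp6 moved from 4.18 to 25.7 CPM per kb, Gbp8 from 8.73 to 16.4 and Gbp10 from 13.6 to 61.1. With up to 2 mismatches these were 354, 53.2 and 1609. The divisor itself makes these changes. With Gbp11 left out of the search, an alternative chosen after seeing the data, they were 21.3, 15.7 and 59.3. Members above the median gene numbered 3, against 4 among genes of at least 600 bases, 4 with no division by length and 5 with exact windows. The assignable share of windows fell from 16.5% to 1.198% in Gbp6, from 54.0% to 16.7% in Gbp8 and from 22.5% to 0.856% in Gbp10 once 2 mismatches were allowed. With 1 mismatch the response element stood in 35.4% of all promoters and in 4 of 4 member promoters, and the gamma-activated site in 71.4% and in 3 of 4. Other normalizations, filters and left-out mice for a test of the diets were not tried, since that test itself was left out. No paired analysis was possible because the values used here are a single value per gene, with none per library, and no mouse number occurs in both diets.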
